A study of Mus musculus with 9 samples.

Results

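The methionine cycle and transsulfuration genes described here are Mat1a, Mat2a, Gnmt, Ahcy, Bhmt, Bhmt2, Cbs, Cth, Pemt and Cdo1. They were chosen by gene symbol for their roles in making and using S-adenosylmethionine, remethylating homocysteine, and making and oxidizing cysteine. Earlier results of these data were known when the choice was made. All 10 were matched among the 37583 genes of the deposited table, each to 1 row. The table holds liver RNA sequencing values of 9 libraries from male C57Bl6 mice aged 16 to 20 weeks and fasted for 6 h. There were 3 groups of 3 libraries: wild type (Gcgr+/+, given PBS), knockout-labelled (Gcgr-/-, given PBS) and antibody-labelled (Gcgr+/+, dosed at 10 mg/kg with a monoclonal antibody, humanized, that targets the glucagon receptor). Injections went into the peritoneum weekly over 10 days. Both interruptions of glucagon signalling are models in which pancreatic alpha cells proliferate, and the series asked what happens to liver transcripts in them. The labels give neither the part of Gcgr that is deleted nor whether every library is a separate mouse, so p-values measure the spread between these libraries.

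Methionine is activated to S-adenosylmethionine, the methyl donor of the cell, and after the methyl group is given away the remaining S-adenosylhomocysteine is split to homocysteine. Homocysteine either takes up a new methyl group to become methionine again or enters transsulfuration, in which its sulfur is passed to serine to make cysteine. The liver is a main site of methionine breakdown, and glucagon is a hormone of fasting that raises hepatic amino acid breakdown.

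Gcgr, the gene the labels name as targeted, had normalized values (the unit of the deposited table, whose floor is 1) of 19547, 17565 and 18450 in wild-type libraries 1 to 3. Its values were 27365, 19656 and 21129 in the knockout-labelled libraries and 2271, 2496 and 1808 in the antibody-labelled libraries. The libraries labelled knockout were therefore not low in Gcgr and the libraries labelled antibody-treated were, so each direction below is that of the label. Whether the labels of these 2 groups were exchanged was not tested; they were kept as deposited, and an exchange would swap the meaning of every value given for them. The table has no exon-level values. Estimated reads assigned to genes ranged from 10988768 to 30057210 per library, the fewest in knockout-labelled library 1. That library stood apart on the first principal component of all genes tested, at 84.3 against -19.2 to 1.71 for the other 8. Beside the 8 hepatocyte markers, which summed to at least 1231063 in every library, the 6 lymphocyte markers summed to at most 433, and of the 4 pancreatic acinar markers Prss2, Cpa1 and Pnlip were listed at the floor of 1 in all 9. The other one, Cela1, read 345 to 518 in wild type, 331 to 415 in knockout-labelled and 298 to 326 in antibody-labelled libraries, the last group below all others.

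**Figure D1:**
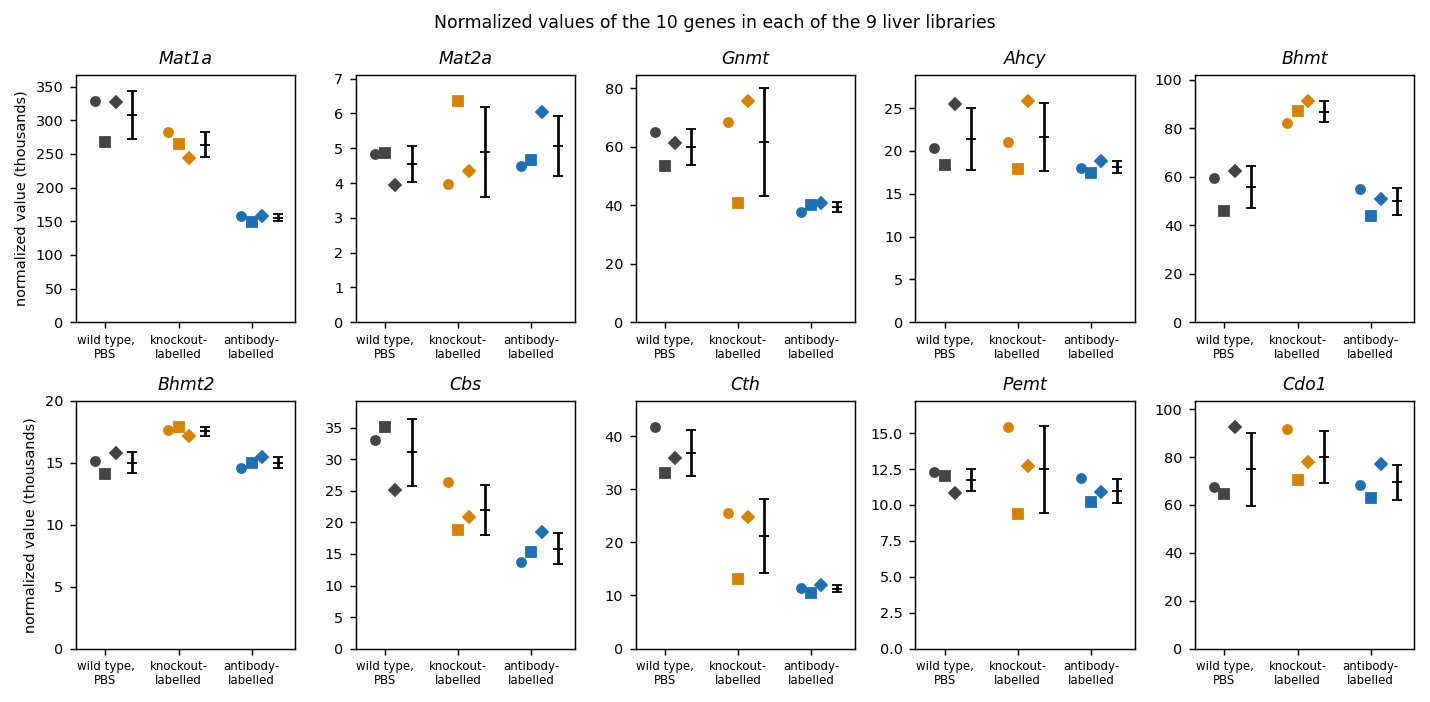
Each panel plots the deposited normalized value (in units of 1000, axis from 0) of 1 gene in the 9 libraries, with circle, square and diamond for libraries 1, 2 and 3 and the black bar for the mean ± SD of 3. Mat1a, Gnmt, Cbs and Cth have their 3 antibody-labelled points below all 6 others, and Bhmt has its 3 knockout-labelled points above all 6 others.

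In the antibody-labelled livers the transcripts for the liver's S-adenosylmethionine synthetase (Mat1a) and for both steps of transsulfuration (Cbs and Cth) fell, to 50.3%, 50.9% and 30.6% of the wild-type mean. None of the 10 genes passed the test in the knockout-labelled livers, where Cth stood at 57.4%, Cbs at 70.7% and Mat1a at 85.7% of wild type. Bhmt, the betaine-dependent remethylating enzyme, stood at 156% of wild type in knockout-labelled and at 89.4% in antibody-labelled livers. The synthetase found mainly outside the adult liver (Mat2a), S-adenosylhomocysteine hydrolase (Ahcy), Pemt and Cdo1 had log2 fold changes within 0.24 of 0 in all 3 comparisons and passed none. In bulk tissue, fewer cells of a type and less RNA per cell cannot be told apart.

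Tests were made with limma on log2(value + 1), with Benjamini-Hochberg adjustment over the 20029 genes tested and a threshold of 0.05. In antibody-labelled against wild type, 3 of the 10 genes passed, all lower, where 0.624% of all genes tested were called lower, 0.714% higher and 1.34% in either direction. An unadjusted p under 0.05 was reached by 4, against 10.3% of all genes. The groups did not overlap for 4 of the 10, Mat1a, Gnmt, Cbs and Cth, all lower, as for 9.54% of all genes lower and 9.65% higher. The median log2 fold change of the 10 was -0.19, against 0.0022 over all genes. In knockout-labelled against wild type, limma called 0 of the 10, and 4 had an unadjusted p under 0.05 (Bhmt, Bhmt2, Cbs and Cth), where 0.155% of all genes were called (0.0599% higher and 0.0949% lower) and 13.8% had such a p. The groups did not overlap for 3 of the 10, Bhmt and Bhmt2 higher and Cth lower, as for 7.09% of all genes higher, 9.35% lower and 16.4% in either direction. The median there was 0.04, against -0.01 over all genes. The 2 comparisons share the wild-type libraries. By mean value the 10 genes lay between the 90.9th and the 99.97th percentile of the genes tested. The shares over all genes, here and below, are not matched for level.

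**Figure D2:**
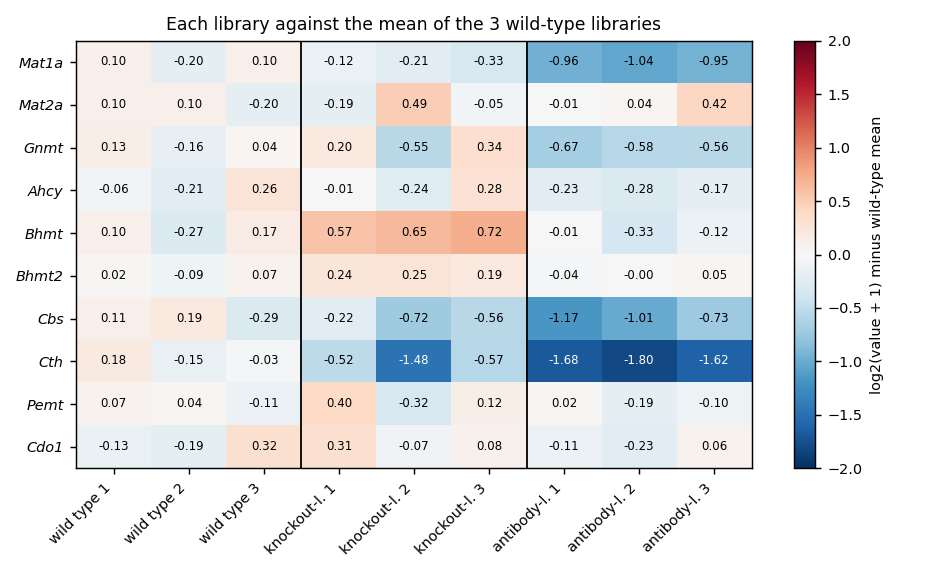
Colour and number give log2(value + 1) of each gene in each library minus the mean of the 3 wild-type libraries for that gene. The Cth row reads from -1.80 to -1.62 in the antibody-labelled libraries and from -1.48 to -0.52 in the knockout-labelled ones, and the Bhmt row reads 0.57, 0.65 and 0.72 in the knockout-labelled libraries.

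Mat1a encodes the catalytic subunit of the S-adenosylmethionine synthetases of the adult liver (ENSMUSG00000037798, mm9 chromosome 14, 41918670 to 41937701, plus strand). Its normalized values were 328508, 267496 and 327517 in wild type, 282462, 264824 and 244568 in knockout-labelled, and 157372, 148966 and 158498 in antibody-labelled libraries. The antibody-labelled values lay closely together and below all others, while the knockout-labelled values overlapped the lowest wild-type library. Antibody-labelled livers had less Mat1a than wild type, with a log2 fold change of -0.98 (SE 0.13, limma adjusted p = 0.00408), and it passed in all 19 alternatives run. The knockout-labelled log2 fold change was -0.22 and did not pass (SE 0.13, limma adjusted p = 0.499). Mat1a was the 7th highest of all genes tested by mean value, and took 0.591% to 0.709% of a wild-type library's values and 0.352% to 0.359% of an antibody-labelled library's.

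Mat2a encodes the catalytic subunit of the synthetase used by most other tissues (ENSMUSG00000053907, chromosome 6, 72382793 to 72389552, minus strand). Its normalized values were 4834, 4860 and 3945 in wild type, 3963, 6354 and 4358 in knockout-labelled, and 4497, 4646 and 6046 in antibody-labelled libraries. The groups overlapped in every comparison, and the log2 fold change in antibody-labelled against wild type was 0.15 with a 95% interval from -0.24 to 0.54. The value of Mat1a divided by that of Mat2a in the same library was 55.0 to 83.0 in wild type, 41.7 to 71.3 in knockout-labelled and 26.2 to 35.0 in antibody-labelled libraries. These ratios are not scaled by length and were not tested. Those of the antibody-labelled libraries lay below all others, and those of the knockout-labelled libraries overlapped wild type. Per kb of exon, as a level, Mat1a was highest of the 10 genes in wild type at 88766 ± 10076 and Mat2a lowest at 1013 ± 116 (SD, n = 3 each). Exon lengths were taken from the GENCODE M21 annotation, since no source used here names the gene models behind the table. They join all annotated exons of a gene, which can exceed the length of its transcripts. Whether the deposited values were already scaled by length is not known, so these levels are uncertain. On the same scale in wild type, Gnmt had 49744 ± 5024 and Cdo1 45540 ± 9293, which do not differ beyond their spread, and Cth had 13217 ± 1575 (SD, n = 3 each).

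Gnmt, Pemt and Ahcy act after S-adenosylmethionine is made. Gnmt encodes glycine N-methyltransferase, an abundant liver enzyme that uses up surplus S-adenosylmethionine (ENSMUSG00000002769, chromosome 17, 46862613 to 46866117, minus strand). Its normalized values were 65215, 53348 and 61409 in wild type, 68467, 40846 and 75648 in knockout-labelled, and 37599, 40060 and 40652 in antibody-labelled libraries. The antibody-labelled values were below all others, though only just below knockout-labelled library 2, the library far under its group. The antibody-labelled log2 fold change of -0.60 against wild type did not pass (SE 0.20, limma adjusted p = 0.241). Of 19 alternatives it passed in 2, without knockout-labelled library 2 (adjusted p = 0.0216) and with the 6 libraries of the pair alone (adjusted p = 0.0209). In the other 17 it did not pass, with a limma adjusted p of up to 0.970.

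Pemt makes phosphatidylcholine by methylating phosphatidylethanolamine, a large use of methyl groups in liver (ENSMUSG00000000301, chromosome 11, 59784116 to 59859991, minus strand). It had 11716 ± 778 normalized values in wild type, 12481 ± 3029 in knockout-labelled and 10985 ± 823 in antibody-labelled livers (SD over 3 libraries). All groups overlapped, and the 95% interval of its log2 fold change ran from -0.44 to 0.25 in antibody-labelled and from -0.28 to 0.41 in knockout-labelled against wild type.

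Ahcy splits S-adenosylhomocysteine (ENSMUSG00000027597, chromosome 2, 154885046 to 154900233, minus strand). It had 21398 ± 3650 normalized values in wild type, 21590 ± 3973 in knockout-labelled and 18095 ± 701 in antibody-labelled livers (SD over 3 libraries). The groups overlapped, with log2 fold changes of 0.01 (SE 0.15) and -0.23 (SE 0.15) against wild type. These values are uncertain as a measure of 1 gene, since the table also lists near-identical copies. Gm4737, on chromosome 16, matches the Ahcy transcript at 99.7% identity over 2083 bases and averaged 153% of the value of Ahcy itself. Gm9826, a pseudogene on chromosome 1, matches it at 99.2% over 1299 bases and averaged 26.8%. With the 3 rows summed, Ahcy stood at -0.20 in antibody-labelled against wild type (limma adjusted p = 0.785) and at 0.01 in knockout-labelled (adjusted p = 0.980).

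Bhmt and Bhmt2 encode neighbouring methyltransferases that turn homocysteine back into methionine, Bhmt with betaine and Bhmt2 with S-methylmethionine as the donor. Bhmt (ENSMUSG00000074768, chromosome 13, 94386846 to 94407916, minus strand) had normalized values of 59499, 45836 and 62175 in wild type. Its values were 82346, 87145 and 91200 in knockout-labelled and 54921, 43905 and 50970 in antibody-labelled libraries. All 3 knockout-labelled libraries were above all 6 others, which overlapped each other. The log2 fold change of Bhmt in knockout-labelled against wild type was 0.65 (SE 0.14, 95% interval 0.34 to 0.96) and missed the threshold (limma adjusted p = 0.0871). In antibody-labelled against wild type it was -0.15 (SE 0.14, limma adjusted p = 0.840), and 0.04 with quantile normalization.

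Bhmt2 (ENSMUSG00000042118, chromosome 13, 94425675 to 94444257, minus strand) had 15163, 14102 and 15781 normalized values in wild type. It had 17659, 17864 and 17137 in knockout-labelled and 14569, 14959 and 15483 in antibody-labelled libraries. As for Bhmt, all knockout-labelled values were above all 6 others, by a smaller step. The knockout-labelled log2 fold change of 0.23 did not pass (SE 0.10, limma adjusted p = 0.331), and that of antibody-labelled livers was near 0, with a 95% interval from -0.21 to 0.21. Bhmt divided by Bhmt2 in the same library was 3.25 to 3.94 in wild type, 4.66 to 5.32 in knockout-labelled and 2.94 to 3.77 in antibody-labelled libraries.

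The stretch before the start of each of the neighbours is shown because both genes were highest in the knockout-labelled libraries, by unequal amounts. The RefSeq promoter table (GRCm38.p6) held entries for 7 of the 10 genes, and the 250 bases before the start were searched on both strands. Bhmt (chr13:93637759-93638008, minus strand) and Bhmt2 (chr13:93674303-93674552, minus strand) are printed 5′ to 3′, with capitals marking AGGTCA, the half-site of many nuclear receptors.
Bhmt: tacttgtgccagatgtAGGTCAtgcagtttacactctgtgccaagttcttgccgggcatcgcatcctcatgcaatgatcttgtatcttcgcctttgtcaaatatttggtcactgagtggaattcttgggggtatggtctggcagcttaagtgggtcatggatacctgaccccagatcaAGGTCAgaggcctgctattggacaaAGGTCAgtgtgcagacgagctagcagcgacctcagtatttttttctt
Bhmt2: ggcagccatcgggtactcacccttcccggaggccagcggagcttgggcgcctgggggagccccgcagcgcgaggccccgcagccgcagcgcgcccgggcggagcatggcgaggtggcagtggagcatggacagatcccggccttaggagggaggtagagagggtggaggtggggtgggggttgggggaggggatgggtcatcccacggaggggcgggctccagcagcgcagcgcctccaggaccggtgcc
The Bhmt window held AGGTCA 3 times, starting 234, 72 and 47 bases before the start, and the Bhmt2 window held it 0 times. Of all 32851 promoter entries, 14.0% held it, and among the other genes it was in the windows of Ahcy and Gnmt. Its letters were added to the search after the sequences were read. The windows also differed in base composition, with 48.0% G and C and 5 CG pairs for Bhmt and 74.0% and 20 pairs for Bhmt2, against medians of 52.4% and 6 over all entries. A stretch after the start was found in the gene's own transcripts, as written, for the other 6 genes but in neither direction for Bhmt, so its start and direction rest on the RefSeq entry alone. A match of letters is a description and not a bound site.

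Like Ahcy, Bhmt shares sequence with other rows of the table. Gm5096, a pseudogene on chromosome 18, matches its transcript at 99.4% identity over 1869 bases and averaged 62.4% of its value, and Bhmt-ps1, on chromosome 4, matches at 98.9% over 1224 bases and averaged 3.47%. Their knockout-labelled log2 fold changes were 0.66 for Gm5096 (limma adjusted p = 0.0666) and 0.66 for Bhmt-ps1 (adjusted p = 0.0663). With the 3 rows summed, Bhmt stood at 0.66 (limma adjusted p = 0.0815) there and at -0.82 in antibody-labelled against knockout-labelled (adjusted p = 0.0483). No copy with at least 95% identity over 500 bases was found in the table for the other 8 genes.

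Cbs and Cth carry out the 2 steps of transsulfuration. Cbs encodes cystathionine beta-synthase, which joins homocysteine to serine (ENSMUSG00000024039, chromosome 17, 31749568 to 31774144, minus strand). Its normalized values were 33134, 35088 and 25140 in wild type, 26392, 18742 and 20903 in knockout-labelled, and 13730, 15252 and 18539 in antibody-labelled libraries. The antibody-labelled values lay below all others, and wild-type library 3 lay below knockout-labelled library 1, the one overlap between those groups. Antibody-labelled livers had less Cbs than wild type, with a log2 fold change of -0.97 (SE 0.17, limma adjusted p = 0.0162). It passed in 13 of 19 alternatives. The call was lost when wild-type library 1 (adjusted p = 0.0765) or 2 (0.0861) or antibody-labelled library 1 (0.0676) or 2 (0.0732) was left out, with no filter (adjusted p = 0.0554) and without limma's trend and robust estimation (adjusted p = 0.107). The knockout-labelled log2 fold change of -0.50 did not pass (SE 0.17, limma adjusted p = 0.221).

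Cbs is the member called in a comparison with wild type that has a promoter entry, so its 250 bases before the start are printed 5′ to 3′ (GRCm38.p6, chr17:31637206-31637455, minus strand), with capitals marking CACGTG, an E-box.
Cbs: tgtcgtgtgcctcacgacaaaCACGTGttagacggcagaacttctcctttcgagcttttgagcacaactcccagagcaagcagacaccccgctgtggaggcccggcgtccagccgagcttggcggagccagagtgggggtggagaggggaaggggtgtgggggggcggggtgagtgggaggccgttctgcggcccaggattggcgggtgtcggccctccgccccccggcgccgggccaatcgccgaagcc
CACGTG started 229 bases before the start, and 6.02% of all entries held it in this window. The cAMP response element TGACGTCA and its half-site TGACG, which 1.55% and 17.8% of all entries hold, were in none of the windows of the 7 genes, and neither were the C/EBP motif TTGCNNAA (9.56%) or the amino acid response element TGATGNAA (3.45%).

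Cth encodes cystathionine gamma-lyase, which releases cysteine (ENSMUSG00000028179, chromosome 3, 157557212 to 157588041, minus strand). Its normalized values were 41685, 33055 and 35922 in wild type, 25555, 13124 and 24789 in knockout-labelled, and 11489, 10512 and 11906 in antibody-labelled libraries. The groups did not overlap in any comparison, with wild type highest and antibody-labelled lowest. Antibody-labelled livers had less Cth than wild type, with a log2 fold change of -1.70 (SE 0.22, limma adjusted p = 0.00390), the largest among the 10 genes in that comparison. The call held in 18 of 19 alternatives and was lost with no filter (adjusted p = 0.0814). The knockout-labelled log2 fold change was -0.86 (SE 0.22, 95% interval -1.33 to -0.38) and did not pass (limma adjusted p = 0.120). That value was -0.54 without knockout-labelled library 2 (adjusted p = 0.0615). Cth divided by Cbs in the same library was 0.942 to 1.43 in wild type, 0.700 to 1.19 in knockout-labelled and 0.642 to 0.837 in antibody-labelled libraries.

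Cdo1 encodes cysteine dioxygenase, which starts the oxidation of cysteine towards taurine and sulfate (ENSMUSG00000033022, chromosome 18, 46872859 to 46887996, minus strand). It had 67504, 64667 and 92432 normalized values in wild type, 91877, 70265 and 78081 in knockout-labelled, and 68432, 62850 and 77280 in antibody-labelled libraries. Every group overlapped every other. The log2 fold changes against wild type were 0.11 in knockout-labelled (95% interval -0.25 to 0.46) and -0.09 in antibody-labelled (95% interval -0.45 to 0.26). Cdo1 divided by Cth in the same library was 1.62 to 2.57 in wild type, 3.15 to 5.35 in knockout-labelled and 5.96 to 6.49 in antibody-labelled libraries. The higher ratios go with the lower values of Cth, since Cdo1 overlapped between groups.

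**Figure D3:**
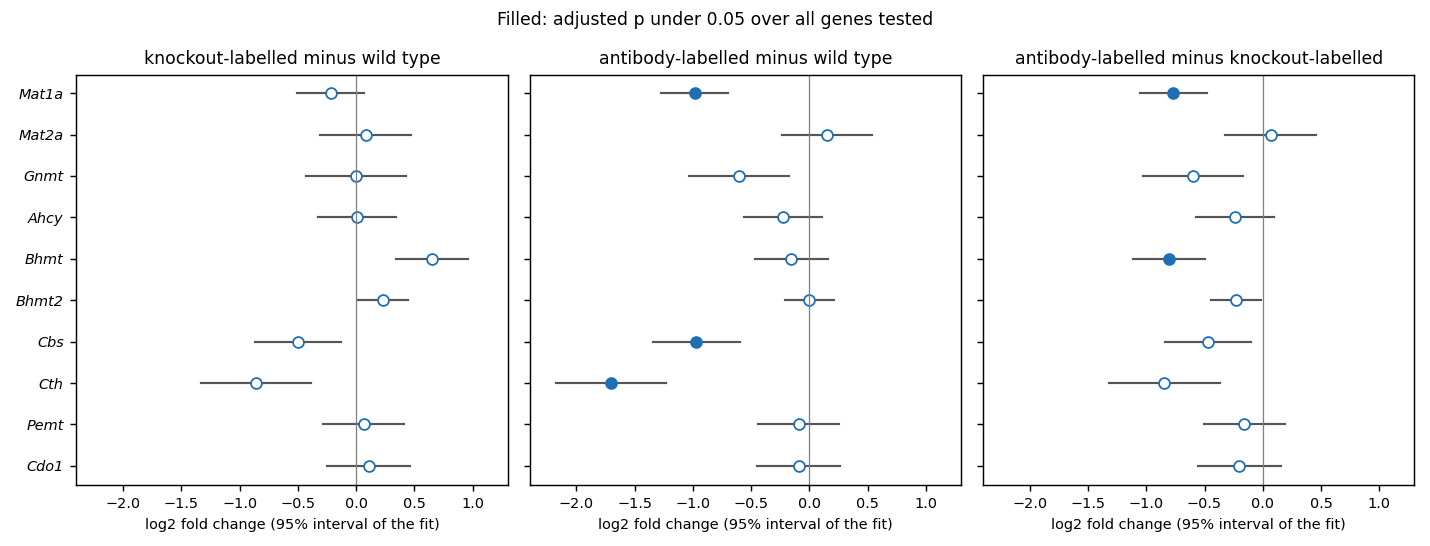
Points give the log2 fold change of each gene in the 3 comparisons, lines the 95% interval of the limma fit, and filled points an adjusted p under 0.05 over all genes tested. Mat1a, Cbs and Cth are filled in antibody-labelled minus wild type, Mat1a and Bhmt in antibody-labelled minus knockout-labelled, and none in knockout-labelled minus wild type.

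The direct comparison of antibody-labelled with knockout-labelled livers tests where the 2 interruptions differ. Mat1a and Bhmt passed, both lower in antibody-labelled, where 0.0899% of all genes were called lower, 0.19% higher and 0.28% in either direction. The log2 fold change was -0.77 for Mat1a (SE 0.13, limma adjusted p = 0.0469) and -0.80 for Bhmt (SE 0.14, adjusted p = 0.0470). Both stood close to the threshold. Over the 19 alternatives the call held in 5 for Mat1a (adjusted p = 3.95e-05 to 0.182) and in 4 for Bhmt (adjusted p = 0.00944 to 0.190). Leaving out library 1, 2 or 3 of wild type, 1 or 3 of the knockout-labelled or any of the antibody-labelled libraries ended both calls, and leaving out knockout-labelled library 2 ended that of Bhmt (adjusted p = 0.0544). Cth (log2 fold change -0.84, SE 0.22, limma adjusted p = 0.137), Gnmt (-0.60, adjusted p = 0.229) and Cbs (-0.47, adjusted p = 0.267) did not pass. Cth did without knockout-labelled library 2 (log2 fold change -1.16, adjusted p = 0.0061), and Gnmt did without it as well (adjusted p = 0.0263). Neither passed in the other 18 alternatives. The groups did not overlap for 6 of the 10, all lower in antibody-labelled, as for 7.38% of all genes lower and 9.82% higher, and 6 had an unadjusted p under 0.05, as had 13.3% of all genes. The median log2 fold change of the 10 was -0.36, against 0.02 over all genes. The 8 hepatocyte markers, all of them negative, also had a median of -0.36 here, and their part in the result was not tested.

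Other measures moved with these groups. In antibody-labelled against wild type, 6 of the 8 hepatocyte markers were negative with a median of -0.14, and only Ass1, a urea cycle enzyme, passed (limma adjusted p = 0.00725). The hepatocyte sums overlapped, at 1284264 to 1583598 in wild type against 1231063 to 1391838 for the antibody label. The sum of the 6 endothelial markers was 15531 to 18066 in wild type against 18571 to 19839 for the antibody label, with 5 of 6 positive, and that of the 6 stellate and fibroblast markers was 11298 to 12973 against 12974 to 14159, with 5 of 6 positive. None of these 12 passed limma's test, and 1 had an unadjusted p under 0.05. The sums of the Kupffer cell, cholangiocyte, lymphocyte and erythroid markers overlapped wild type. Of these lists, 5 of 6, 2 of 6, 4 of 6 and 0 of 4 genes were positive, in that order. The part of any of these markers in the lower values of Mat1a, Cbs and Cth was not tested.

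The knockout-labelled group was the most variable for these genes by median coefficient of variation. That median over the 10 was 18.2%, against 11.7% for wild type and 6.91% for the antibody label. By the same measure, the hepatocyte markers Alb, Ttr, Apoa1, Apoa2, Cyp2e1 and Ass1 also varied most in the knockout-labelled group, but Serpina1a and Tat did not. The figure over all genes was not computed, so a spread particular to these genes is not shown. Knockout-labelled library 2 was the lowest of its group for 6 of the 10 genes, and the share over all genes was not computed. It was also the lowest for the hepatocyte markers Alb, Ttr, Apoa1, Apoa2, Serpina1a, Cyp2e1 and Ass1, but not for Tat. It stood at 52.1% of the mean of the other 2 libraries for Cth, 56.7% for Gnmt, 66.6% for Pemt, 76.5% for Ahcy, 79.3% for Cbs and 82.7% for Cdo1. It was the highest for Mat2a, at 153% of the mean of the other 2, and for Bhmt2, and was within 3% of that mean for Mat1a, Bhmt and Bhmt2. The shallowest library, knockout-labelled library 1, was the lowest of its group for Mat2a and Bhmt and the highest for Mat1a, Cbs, Cth, Pemt and Cdo1.

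The genes most like each member were sought among tested genes at or above the median level, by the root mean square difference of log2 values centred on each gene's own mean over the 9 libraries. For Mat1a they were Aass, which starts lysine breakdown (0.17), Por, the reductase that serves cytochromes P450 (0.17), and Pglyrp2 (0.17), where the spread of Mat1a itself was 0.43. For Cth they were Hgd, of tyrosine breakdown (0.25), Ass1 (0.28) and Orm2, an acute phase protein (0.30), against a spread of 0.75. For Cbs they were Agpat6 (0.15), Fh1, fumarase (0.16), and Agxt, which handles glyoxylate (0.17), against 0.44. For Gnmt they were Arg1, arginase (0.16), Sardh, which oxidizes the sarcosine that Gnmt makes (0.16), and Aldh1l1, of folate metabolism (0.17), against 0.37. For Bhmt and Ahcy the nearest were the copies named above, Gm5096 (0.06) and Gm9826 (0.06).

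**Figure D4:**
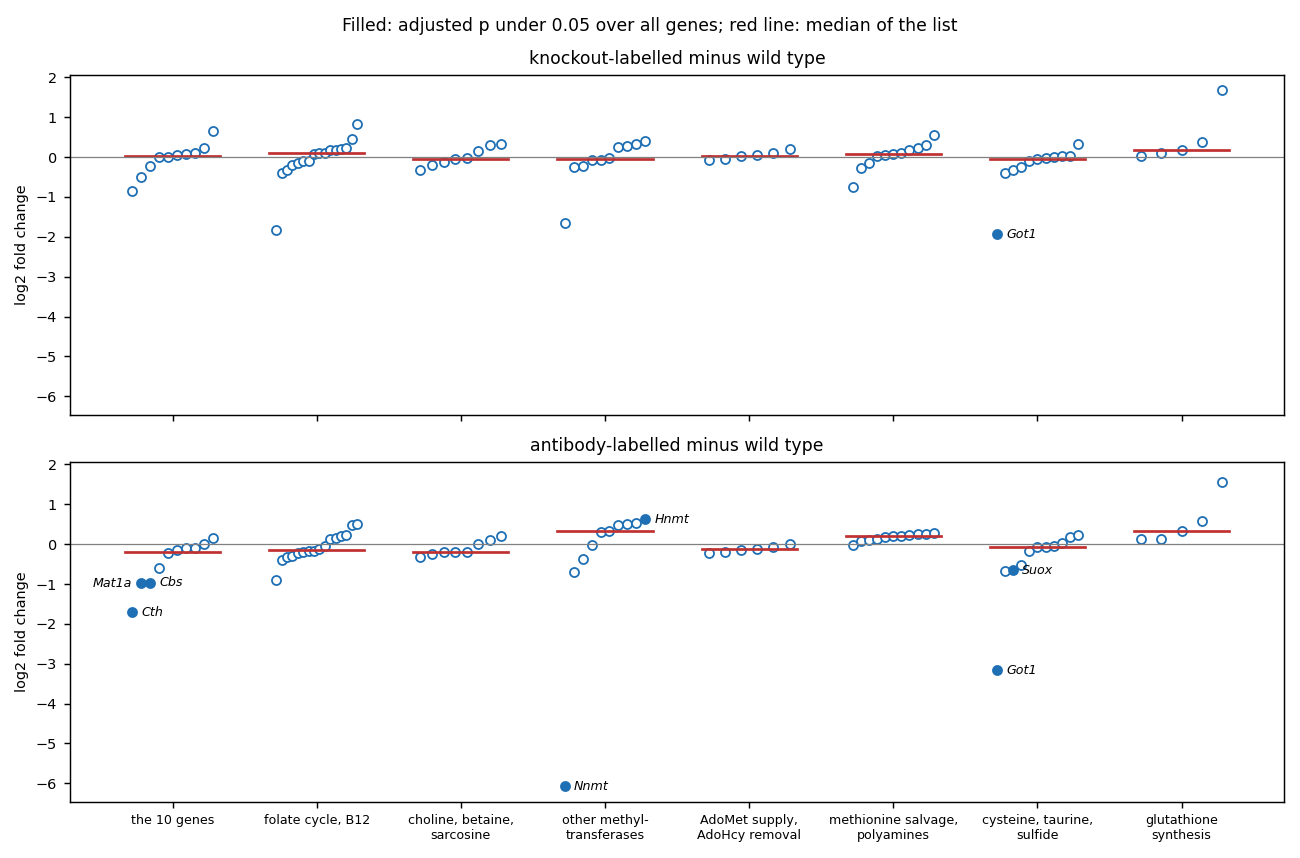
Points give the log2 fold change of each gene against wild type, by list, in knockout-labelled (top) and antibody-labelled livers (bottom) on the same axis, with the list's median in red and filled points for an adjusted p under 0.05. Got1 is filled in both panels, and Nnmt, Suox, Hnmt, Mat1a, Cbs and Cth in the bottom one.

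The pathways around these 10 genes were read from 7 lists of 67 genes in all. In antibody-labelled against wild type, 1 was higher and 3 were lower of the 67, with a median log2 fold change of -0.0054, where 0.714% of all genes were called higher and 0.624% lower. In knockout-labelled against wild type, limma called 0 higher and 1 lower, with a median of 0.02, where 0.0599% of all genes were called higher and 0.0949% lower. In the direct comparison of the interruptions limma called 0 of the 67 and 0.28% of all genes, and 16 had an unadjusted p under 0.05, as had 13.3% of all genes.

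The genes called were in the lists for cysteine breakdown and for methyltransferases. Of 11 genes for cysteine breakdown, taurine and sulfide, 4 had an unadjusted p under 0.05 in antibody-labelled against wild type. Over all genes that share was 10.3%. Of the 11, Got1 and Suox fell in antibody-labelled livers. Got1, an aspartate aminotransferase that also acts on cysteine sulfinate, had log2 fold changes of -3.16 there (limma adjusted p = 8.92e-04) and -1.93 in knockout-labelled livers (adjusted p = 0.0284). The knockout-labelled call of Got1 was lost on leaving out 1 of 4 libraries, wild-type 1 (adjusted p = 0.165), wild-type 2 (0.103), knockout-labelled 1 (0.109) or antibody-labelled 2 (0.0574). Suox, sulfite oxidase, had 11850, 11532 and 10060 normalized values in wild type against 7540, 7313 and 6474 for the antibody label. Its log2 fold change was -0.65 (SE 0.12, limma adjusted p = 0.0268), and 11 of 19 alternatives kept the call. Leaving out wild-type library 1 (adjusted p = 0.123) or 2 (0.122) or any antibody-labelled library (0.0593, 0.0906 and 0.121) ended it. Csad, which makes hypotaurine, overlapped between groups and had log2 fold changes of 0.17 in antibody-labelled (limma adjusted p = 0.906) and 0.02 in knockout-labelled livers (adjusted p = 0.982).

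Of 10 other methyltransferases that use S-adenosylmethionine, Nnmt fell and Hnmt rose in antibody-labelled livers. Nnmt, which methylates nicotinamide, had normalized values of 5869, 5396 and 1141 in wild type, 1422, 537 and 1543 in knockout-labelled, and 62.1, 30.2 and 59.4 in antibody-labelled libraries. Its log2 fold change was -6.07 (limma adjusted p = 0.0119; 0.0614 and 0.0570 without antibody-labelled libraries 2 or 3) and in knockout-labelled livers -1.65 (adjusted p = 0.377). Without wild-type library 3, the low one, these were -6.84 (adjusted p = 0.00187) and -2.41 (adjusted p = 0.0977). Hnmt, which methylates histamine, had 1242, 1208 and 1233 normalized values in wild type against 1836, 2074 and 1789 for the antibody label. Its log2 fold change was 0.63 (limma adjusted p = 0.0242), and 10 of 19 alternatives kept the call, which ended without any 1 of the wild-type (adjusted p = 0.0921, 0.104 and 0.0629) or antibody-labelled libraries (0.0675, 0.129 and 0.0580). The median of these 10 genes was 0.32 in antibody-labelled against wild type. There 6 had an unadjusted p under 0.05, as had 10.3% of all genes. The groups did not overlap for 3 higher and 3 lower, as for 9.65% and 9.54% of all genes.

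The remaining 5 lists had no gene past limma's test in any comparison. Of 16 genes of the folate cycle and vitamin B12, 2 had an unadjusted p under 0.05 in antibody-labelled and 2 in knockout-labelled against wild type, where 10.3% and 13.8% of all genes had one. Mtr, which remethylates homocysteine with methyl folate, had a log2 fold change of 0.13 in antibody-labelled (limma adjusted p = 0.857) and -0.20 in knockout-labelled livers (adjusted p = 0.536). The choline, betaine and sarcosine list (8 genes) had a median of -0.20 in antibody-labelled livers with 0 at an unadjusted p under 0.05. For 4 of its genes the antibody-labelled values lay below wild type without overlap, as for 9.54% of all genes. Not all of its genes serve oxidation, since it also holds Slc44a1, Chka and Pcyt1a. The list for supply of S-adenosylmethionine and removal of S-adenosylhomocysteine (6 genes) had a median of -0.12 there with 0. It counts the Ahcy-like genes Ahcyl1 and Ahcyl2. The methionine salvage and polyamine list, which includes Sat1 of polyamine breakdown, had 10 of 11 genes positive in antibody-labelled livers. Its median was 0.20, with 0 at an unadjusted p under 0.05 and 4 higher without overlap, as for 9.65% of all genes. The glutathione list held Gclc, Gclm, Gss, Slc7a11 and Chac1, of which Slc7a11 and Chac1 are not enzymes of glutathione synthesis. All 5 were positive in antibody-labelled livers (median 0.32, 3 at an unadjusted p under 0.05). They were also positive in knockout-labelled livers (median 0.18, 2 at such a p), against the same 10.3% and 13.8% of all genes. One of these 5, Slc7a11, was at or near the floor, with normalized values of 1 to 3.91, so its sign carries no information.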

How the data were processed

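Polyadenylated RNA of 9 liver libraries was sequenced as 50 bp read pairs, per the labels. FastQC, TopHat2 2.0, SAMtools and genome build mm9 are named in the submitters' processing notes; how reads were counted and scaled is not given in the sources used here. Per Ensembl gene, deposited values hold a normalized signal with a floor of 1 (called normalized values). Between 40.8% and 45.8% of low values (under 10 reads) came out whole, within 0.01 read, in each library, so whole reads were not recovered and no count model was run; estimated reads take the commonest value above the floor as 1 read. Of 37583 genes, the 20029 above the floor in at least 3 libraries were tested with limma 3.58.1 in R 4.3.3 on log2(value + 1), which understates changes of low genes: all 9 libraries, 3 group means, eBayes with trend and robust estimation, two-sided. An exact permutation of 3 against 3 cannot go below p = 0.1 and was not run. The fit was tested on simulated data, drawn as independent normal log2 values with the same spread in every group. That setting does not cover the unequal group spreads or the library that stood apart here. The 10 genes, Gcgr, Nnmt, Mtr and Csad were named whatever their p, and other pathway genes where called in a comparison; 1 further gene of that rule is not reported here. Members, lists and rules were chosen with earlier results of these data known. Copies were sought with BLAST 2.17.0 in GENCODE M21 transcripts. The 19 alternatives changed pseudocount, filter, estimation, weights, scaling, libraries or block, and 1 summed copies (added after seeing the data).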

Additional observations from a re-analysis of the deposited data

How the results depend on the processing

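Over the 30 log2 fold changes of the 10 genes and 19 alternatives each, 503 of 570 values kept their direction and side of the threshold, 36 lost and 5 gained a call, and 26 changed sign. With no filter, 1 member was called higher in knockout-labelled against wild type (Bhmt, adjusted p = 0.0373), and the 3 lower members in antibody-labelled against wild type became 1; leaving out a library gave 2 to 4. The 2 lower members in antibody-labelled against knockout-labelled became 0 with a pseudocount of 10, no trend and robust estimation, library weights, median-ratio rescaling, quantile normalization or only the 6 libraries compared, and 0 to 3 without a library. With the cause not tested in any case, the lower pathway genes in knockout-labelled against wild type went from 1 to 0 with no filter, no trend and robust estimation or only the 6 libraries compared, and 0 to 1 without a library, where the higher ones were 0 to 1. In antibody-labelled against wild type, the 1 higher pathway gene became 0 with no filter, no trend and robust estimation or the replicate block, and 0 to 1 without a library; the 3 lower became 5 with no filter, the stricter filter or only the 6 libraries compared, 7 with library weights, and 1 to 5 without a library. In antibody-labelled against knockout-labelled, the lower pathway genes went from 0 to 1 with no filter or only the 6 libraries compared, and 0 to 2 without a library.

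Sign changes were in values that did not pass. In knockout-labelled against wild type, library weights gave Gnmt 0.0071, Pemt -0.0090 and Csad -0.081, median-ratio rescaling gave Gnmt 0.0079, and quantile normalization gave Ahcy -0.013 and Csad -0.0060. Without a library the ranges were -0.12 to 0.22 for Mat2a, -0.18 to 0.27 for Gnmt, -0.13 to 0.14 for Ahcy, -0.10 to 0.26 for Pemt and -0.25 to 0.16 for Csad. In antibody-labelled against wild type, quantile normalization gave Bhmt 0.040, Bhmt2 0.088 and Cdo1 0.028, and library weights gave Bhmt2 0.015; without a library the ranges were -0.045 to 0.037 for Bhmt2 and -0.19 to 0.068 for Cdo1. In antibody-labelled against knockout-labelled they were -0.069 to 0.27 for Mat2a, -0.35 to 0.0093 for Pemt and -0.0096 to 0.42 for Csad.

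Genes called over all genes in antibody-labelled against wild type numbered 40 to 365 higher (143 as reported) and 31 to 301 lower (125). In knockout-labelled against wild type they numbered 0 to 57 higher (12) and 0 to 97 lower (19), and in antibody-labelled against knockout-labelled 0 to 55 higher (38) and 1 to 36 lower (18). The labels do not say whether equal replicate numbers mark a shared batch, and these libraries are too few to show that none exists. Of 9 same-numbered pairs, 1 had deviations correlated over 0.1 (-0.14 to 0.13), and of 18 differently numbered pairs 2 had (-0.12 to 0.14). With the replicate block the 3 lower members in antibody-labelled against wild type stayed 3. Hnmt (limma adjusted p = 0.0547) and Suox (0.0549) lost their calls with it. Depth is known only as an estimate, so no counting interval is given.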
